A study of Homo sapiens with 6 samples.

Results

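Genes of the NRF2 antioxidant pathway, 10 in all, were examined in JHH-4 cells, an established line from a human hepatocellular carcinoma, with and without overexpression of the microRNA miR-885-5p. The rule that picks their rows uses gene names and no measured value, but the names were chosen with earlier results of these data known: NFE2L2, KEAP1, NQO1, GCLC, GCLM, HMOX1, TXNRD1, SRXN1, GSR and TXN. Of these 10, 9 had a row among the 14034 gene rows of the count table; NQO1, the quinone reductase gene, was not analysed here. Messenger RNA was counted in 3 control libraries, labelled wild type, and in 3 libraries of cells in which hsa-miR-885-5p was raised from a plasmid carrying its primary transcript. The submitters describe the 3 libraries of each group as technical replicates of a single line, and p-values here therefore reflect technical spread and cover no variation between separate cultures. The labels state neither what the control cells received nor the time between delivery of the plasmid and harvest, so an effect of the plasmid cannot be told apart from an effect of the microRNA.

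NRF2, the product of NFE2L2, is a transcription factor that KEAP1 holds in the cytoplasm and hands to a CUL3 ubiquitin ligase for degradation. Oxidants and electrophiles modify KEAP1, NRF2 then escapes degradation, pairs with a small MAF protein and binds antioxidant response elements at genes of glutathione synthesis, thioredoxin recycling, NADPH supply, quinone reduction and heme breakdown. BACH1 competes for the same elements and represses several of these genes, HMOX1 above all. The pathway is often active in liver cancer cells, frequently through lesions in KEAP1 or NFE2L2. The state of the protein is not read by messenger RNA counts.

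The microRNA binds messenger RNAs mainly through its seed, bases 2 to 8, which is in capitals here; the mature sequence is RefSeq's on GRCh38.p14 (chr3:10394531-10394552, minus strand).
hsa-miR-885-5p: uCCAUUACacuacccugccucu
For each gene, the longest 3′ UTR in GENCODE 29 (GRCh38) was searched for the 8mer GTAATGGA, the 7mers GTAATGG and TAATGGA and the 6mer TAATGG. None of the 9 genes held an 8mer or a 7mer, and 8 held none of the 4, including HMOX1 (616 bases), GCLM (3785 bases) and TXNRD1 (1884 bases). Of 12308 genes with a 3′ UTR, 8.01% held an 8mer or the 7mer GTAATGG. The 7mer TAATGGA was the strongest site of 9.24%, and 69.6% held none of the 4, so lacking a site is common. Among the 9 genes SRXN1 was the exception, with a single 6mer, the strongest site of 13.2% of all genes. The 6mer begins at base 441 of the UTR's 2099. It is shown with its surroundings, the 6 matching bases in capitals (chr20:648255-648284, minus strand).
SRXN1 6mer: agatgggtggcTAATGGtattggttcaaca

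Total counts ran from 46382314 to 56409821 per library. Levels are CPM, counts relative to the library's size scaled by the trimmed mean of M-values (TMM). Differences are log2 fold changes, positive where the level was higher with miR-885-5p, given with a standard error (SE). A gene was called at an adjusted p under 0.05, with edgeR's quasi-likelihood test and Benjamini-Hochberg adjustment over all 14034 genes. MIR885 and its host gene ATP2B2 were not analysed here, and the rise of the microRNA was not checked. The keratin genes KRT8 and KRT18, which mark epithelial cells of the liver, stood at 1725 and 573 CPM in control libraries; 6 of 15 hepatocyte markers had a row, and ALB, APOB, TTR and HNF4A were not among them. The summed level of those 6 ran from 2298 to 2389 CPM in control and from 1931 to 2009 CPM in miR-885-5p libraries, nearly all of it from the keratins. Of those 6 markers 4 fell, where 26.5% of all genes fell, and the median log2 fold change was -0.87. The fibrinogen genes FGB, FGA and FGG fell to 21.7%, 32.1% and 36.8% of control, from 20.7, 3.03 and 10.4 CPM. Of 8 fibroblast and stellate cell markers 4 had a row, and their summed level ran from 223 to 246 CPM in control and from 400.4 to 411 CPM in miR-885-5p libraries, most of it from RGS5. The summed level of 3 of 8 leukocyte markers ran from 124 to 145 CPM in control and from 133 to 137 CPM in miR-885-5p libraries, nearly all of it from CD68. CD14 fell by 0.83 on the log2 scale from 1.41 CPM in control, and CSF1R rose by 0.44 from 6.07 CPM. The summed level of 2 of 6 endothelial markers reached 2.08 CPM in control and 2.78 CPM in miR-885-5p libraries. The part of these markers in the results below was not tested.

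Of the 9 genes, 6 fell with miR-885-5p and none rose. HMOX1 fell by 1.08 on the log2 scale to 47.2% of the control level, GCLM to 63.6%, and TXNRD1, SRXN1, TXN and GSR to between 79.7% and 85.4%. NFE2L2, KEAP1 and GCLC did not pass the test. In bulk RNA, fewer cells that express a gene and less RNA per cell cannot be told apart. Among all genes tested, 26.5% were lower and 26.3% higher, 52.9% in all, so that a call as such is common in this comparison. The median log2 fold change was -0.29 over the 9 genes and 0.00 over all genes (-0.00061). The groups did not overlap for 7 of the 9 genes, against 60.5% of all genes: 6 were lower in every miR-885-5p library (30.3% of all genes) and 1, GCLC, was higher in every one (30.2%).

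**Figure D1:**
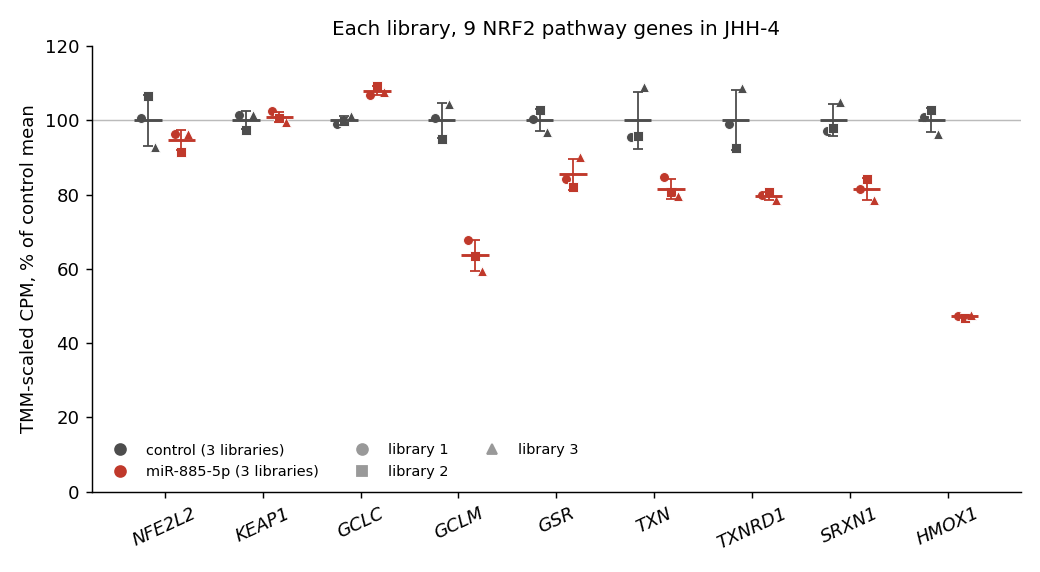
TMM-scaled CPM of each library as a percentage of the control mean (y axis) for the 9 genes (x axis), with the mean as a horizontal bar and the SD over 3 libraries as an error bar. HMOX1 and GCLM lie farthest below control, at 47.2% and 63.6%, while NFE2L2 and KEAP1 overlap with control.

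The transcription factor and its sensor come first. NFE2L2, which encodes NRF2, had 129, 137 and 119 CPM in control libraries 1 to 3 and 123, 117 and 124 CPM in miR-885-5p libraries 1 to 3. The groups overlapped, and control library 3 was at the level of the miR-885-5p libraries. The log2 fold change was -0.08 (SE 0.05, adjusted p = 0.232). Without control library 3 it was -0.13 with adjusted p = 0.0229, and no other omission of a library gave a call. Without control library 2 it was -0.031 with adjusted p = 0.620, so the estimate depends on single control libraries in both directions. KEAP1, the sensor that binds NRF2, had 85.1, 81.7 and 85.2 CPM in control and 86.0, 84.5 and 83.6 CPM in miR-885-5p libraries. All 6 libraries lay close together (log2 fold change 0.01, SE 0.04, adjusted p = 0.811), and the sign turned without control library 2 (-0.0072, adjusted p = 0.895). The ratio of KEAP1 to NFE2L2, in the authors' FPKM, was 0.674 ± 0.0720 in control and 0.716 ± 0.0250 in miR-885-5p libraries (SD, n = 3 per group; exact two-sided permutation p = 0.5). The annotated span of NFE2L2 overlaps AGPS on the opposite strand, and the labels do not say whether the counting used strand. The spans of KEAP1, GCLC, TXNRD1 and SRXN1 also overlap other annotated genes. Those on the same strand include EID3 for TXNRD1 and AL121758.1 for SRXN1, and how reads in such overlaps were counted is not stated.

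HMOX1 encodes heme oxygenase 1, which opens heme to biliverdin, carbon monoxide and iron. It had 567, 578 and 542 CPM in control libraries 1 to 3 and 267, 263 and 267 CPM in miR-885-5p libraries 1 to 3. Every control library was far above every miR-885-5p library, and the miR-885-5p libraries differed from each other by less than the control libraries did. The log2 fold change was -1.08 (SE 0.04, adjusted p = 6.21e-08). Of all genes, 284 had a lower fold change than HMOX1, and 2.29% of genes were called with a fall of at least 2-fold. HMOX1 was the only member past a test against a 1.5-fold change (adjusted p = 2.48e-06), which 6.43% of all genes passed, whereas GCLM had adjusted p = 0.424 there and TXNRD1, SRXN1, TXN and GSR had 1. HMOX2, the constitutive heme oxygenase gene, fell, from 31.1 ± 1.94 CPM in control to 26.7 ± 1.43 CPM with the microRNA (log2 fold change -0.22, SE 0.07, adjusted p = 0.0188; chosen after its value was seen). That call was lost without control library 3 (-0.17, adjusted p = 0.058) and without miR-885-5p library 1 (-0.17, adjusted p = 0.0861), and also under total-count scaling (-0.17, adjusted p = 0.0586). The ratio of HMOX1 to HMOX2 in FPKM was 17.6, 18.9 and 16.6 in control and 9.37, 8.37 and 9.77 in miR-885-5p libraries. These ratios did not overlap between groups; the exact two-sided permutation p was 0.1, the smallest that 3 against 3 can give (adjusted p = 0.167 over 5 such ratios).

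Of the 3 glutathione genes, GCLM and GSR fell and GCLC did not pass the test. Glutamate-cysteine ligase, which makes the first and limiting bond of glutathione, is a dimer of a catalytic subunit from GCLC and a modifier subunit from GCLM. GCLM had 81.5, 76.8 and 84.3 CPM in control libraries 1 to 3 and 54.8, 51.4 and 48.1 CPM in miR-885-5p libraries 1 to 3. The groups were well apart (log2 fold change -0.65, SE 0.06, adjusted p = 1.29e-05). GCLC had 41.0, 41.4 and 42.0 CPM in control and 44.3, 45.3 and 44.6 CPM in miR-885-5p libraries. Each miR-885-5p library was above each control library for GCLC, but the difference was small (log2 fold change 0.11, SE 0.05) and missed the threshold with adjusted p = 0.0703. With upper-quartile scaling the value for GCLC was 0.12 (adjusted p = 0.0474) and with total-count scaling 0.16 (adjusted p = 0.0176), and both of these would be calls upward.

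Per transcript length, the ratio of GCLM to GCLC in FPKM was 1.64, 1.46 and 1.63 in control libraries and 1.01, 0.927 and 0.896 in miR-885-5p libraries. The modifier subunit's transcript was thus above the catalytic subunit's in each control library and close to it, on either side, in the others (exact two-sided permutation p = 0.1, the smallest possible; adjusted p = 0.167 over 5 ratios). GSR, the reductase that returns oxidized glutathione to its reduced form with NADPH, had 161, 165 and 155 CPM in control and 135, 131 and 144 CPM in miR-885-5p libraries. The groups did not overlap and GSR fell by 0.23 on the log2 scale (SE 0.04, adjusted p = 0.00192).

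The 3 thioredoxin genes all fell, with log2 fold changes from -0.33 to -0.29. TXN, the small disulfide reductase itself, had 134, 134 and 152 CPM in control libraries 1 to 3 and 119, 113 and 111 CPM in miR-885-5p libraries 1 to 3. Control library 3 was high, and the groups did not overlap (log2 fold change -0.29, SE 0.06, adjusted p = 0.00154). TXNRD1, the selenoprotein that reduces thioredoxin with NADPH, had 320, 298 and 351 CPM in control and 258, 261 and 254 CPM in miR-885-5p libraries. Control library 3 was again the highest, and TXNRD1 fell by 0.33 (SE 0.05, adjusted p = 6.92e-04). SRXN1, sulfiredoxin, which repairs overoxidized peroxiredoxins, had 118, 119 and 128 CPM in control and 99.0, 102 and 95.3 CPM in miR-885-5p libraries. The highest library was once more control library 3 (log2 fold change -0.30, SE 0.05, adjusted p = 4.24e-04). Without control library 3 the log2 fold changes of TXN, TXNRD1 and SRXN1 were -0.23, -0.26 and -0.26, with adjusted p = 6.16e-04, 1.76e-04 and 3.76e-04. The ratio of TXNRD1 to TXN in FPKM was 0.517 ± 0.0205 in control and 0.496 ± 0.0163 in miR-885-5p libraries, which overlap (exact two-sided permutation p = 0.3). TXN has 7 named pseudogenes in the annotation, and the labels do not say how reads shared with them were counted.

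In the authors' deposited table the same 6 genes had negative log2 fold changes with p under 0.05, HMOX1 at -1.08 and GCLM at -0.65, and KEAP1 and NFE2L2 had p = 0.815 and 0.173. At that threshold, 4045 of all 14034 rows were lower in that table. It comes from the same 6 libraries, so it is no separate support. Its log2 fold changes equalled those of the DESeq2 alternative used here for the genes examined, so these are not separate estimates. The file headers do not call its p-values adjusted, while the calls above rest on an adjusted p. For GCLC the authors' p was 0.0702, where DESeq2 here gave adjusted p = 0.116.

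Levels can be compared between genes only per length, for which the authors' FPKM was used. HMOX1 was the most abundant of the 9 in control libraries at 278 ± 5.53 FPKM (SD, n = 3), rank 173 among all rows. TXN followed at 145 ± 12.9 FPKM, TXNRD1 at 75.1 ± 8.10 FPKM and GSR at 45.7 ± 1.32 FPKM. NFE2L2 at 41.5 ± 2.80 and SRXN1 at 40.6 ± 2.23 FPKM did not differ beyond their spread. KEAP1 had 27.8 ± 1.28, GCLM 15.7 ± 0.983 and GCLC 9.97 ± 0.231 FPKM. With miR-885-5p, HMOX1 at 137 ± 0.698 FPKM still had a higher mean than TXN at 123 ± 3.93 FPKM. GCLM at 10.5 ± 0.426 and GCLC at 11.2 ± 0.278 FPKM changed places there, with values that overlap.

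**Figure D2:**
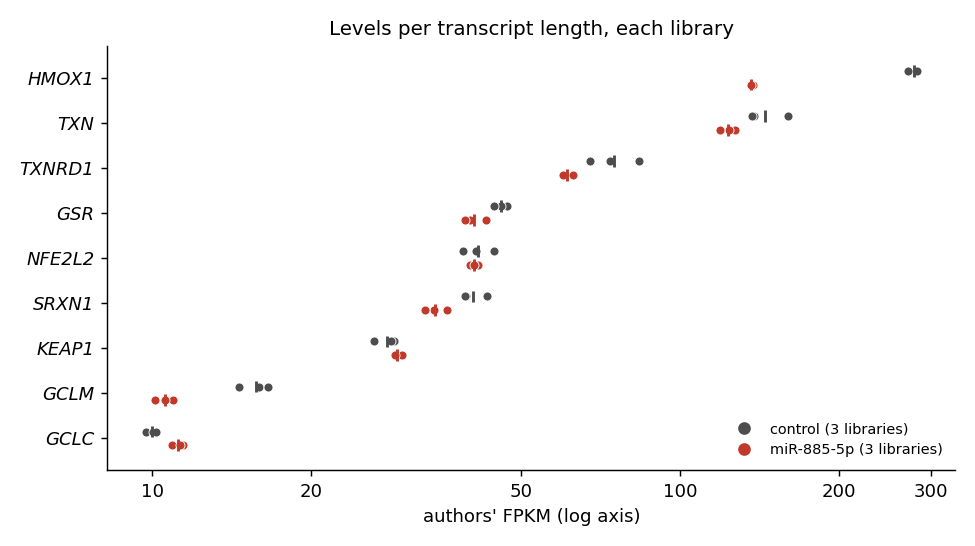
The authors' FPKM of each library on a log axis (x) for the 9 genes (y), ordered by the control mean, with a bar at each group's mean. HMOX1 is highest in control at a mean of 278 FPKM, and the 2 glutamate-cysteine ligase genes are lowest.

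The position of a gene was examined because genes of part of chromosome 1 were known to be lower in these data. In GENCODE 29 on GRCh38, GCLM spans chr1:93885205-93909456, minus strand. Of the 50 tested genes around it, 41 had a log2 fold change below 0, with a median of -0.28, and 8 were at or below the value of GCLM. HMOX1 spans chr22:35380361-35394214, plus strand; 35 of its 50 neighbours were below 0, with a median of -0.16, and 2 were at or below HMOX1. Around the other 7 genes the median of the neighbours ran from -0.10 for GCLC to 0.07 for KEAP1. For TXNRD1 on chromosome 12 and SRXN1 on chromosome 20, neighbours had medians of 0.03 and 0.01, and 5 and 6 of 50 were at or below the gene. The part of a gene's neighbourhood in its fall or rise was not tested.

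**Figure D3:**
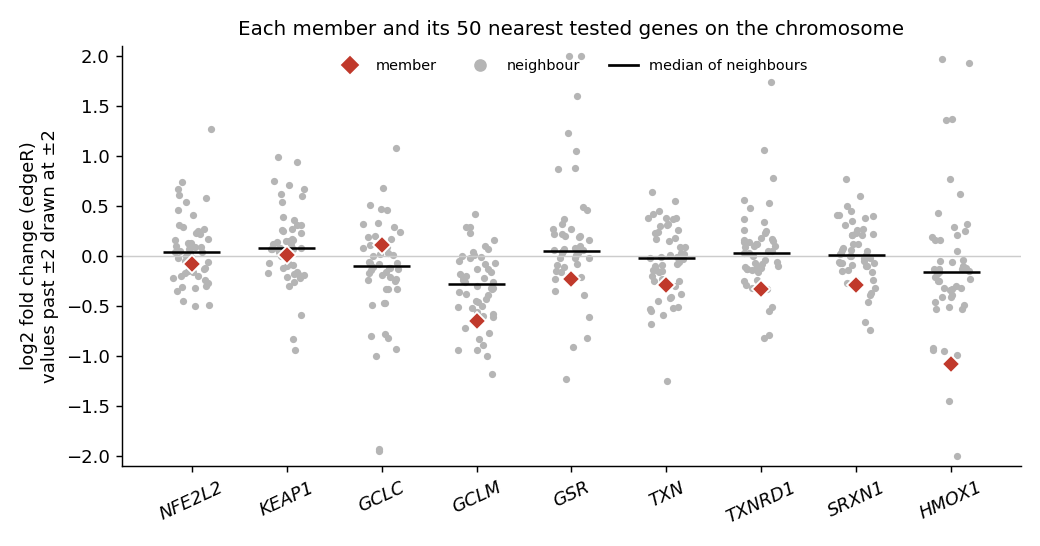
Log2 fold change (y axis) of each member (diamond) and of the 50 tested genes around it in chromosomal order (grey points, with their median as a bar; values past 2 in either direction are drawn at 2). The neighbours of GCLM have the lowest median, -0.28, and GCLM at -0.65 lies below most of them.

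Antioxidant response elements were looked for in RefSeq's promoters (GRCh38.p14), each 300 bases long from 250 before to 50 after an annotated start. The table matched 7 of the 9 genes, without HMOX1 and GSR. The motif TGACNNNGC, read on both strands (GCNNNGTCA on the other), was in a promoter of 3 of these 7 genes, GCLM, TXNRD1 and KEAP1, and in 19.4% of 9882 tested genes with a promoter. A longer form with a final A, each match of which also holds the shorter one, was in the same 3 and in 4.09% of those genes. KEAP1 and TXNRD1 have 2 promoters each in the table, and the longer match is in the second. All 3 longer matches read on the strand opposite to the gene, and they are printed 5′ to 3′ on the gene's strand, the match in capitals, to show how alike they are.
GCLM, first base at -35 from the start, chr1:93909446-93909475, minus strand: ctacgatttcTGCTTAGTCAttgtcttcca
KEAP1, first base at -32, chr19:10502784-10502813, minus strand: cgcccggctcTGCTTAGTCAtggtgacctg
TXNRD1, first base at -103, chr12:104286919-104286948, plus strand: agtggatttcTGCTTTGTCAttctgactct
GCLM and TXNRD1 fell and KEAP1 did not pass the test, while TXN and SRXN1 fell without a match in these windows. Over all tested genes with a promoter, 26.9% of 405 rows with the longer form and 28.3% of 9480 without it were lower, with medians of 0.00 in each set (-0.0049 and -0.00055). A match is a string of letters and shows no binding, and elements outside these windows were not searched.

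The wider pathway was described with 125 other genes, of which 111 were tested: 29 rose and 35 fell, 26.1% and 31.5%, near the background of 26.3% and 26.5%, with a median of 0.00 (0.0025). Among the 9 members, 66.7% fell.

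**Figure D4:**
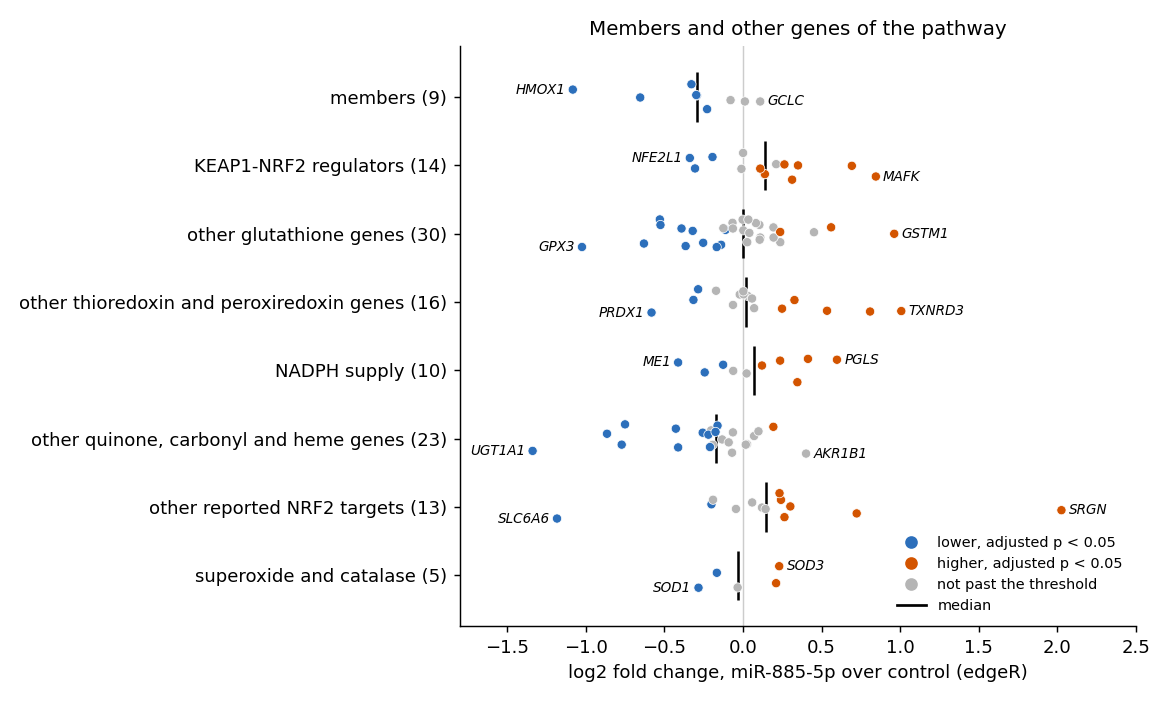
Log2 fold change of miR-885-5p over control (x axis) for each tested gene of the members and of 7 lists of related genes (y axis, number of genes in brackets), coloured by call, with the median as a bar. The members' median is -0.29, the quinone, carbonyl and heme list is at -0.17, and the list of regulators is at 0.14.

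Of 14 regulators of the pathway, 7 rose (50%, against 26.3% of all genes) and 3 fell (21.4%, against 26.5%), with a median of 0.14. MAFK, a small MAF protein that partners with NRF2 or with BACH1, rose, from 61.5 ± 4.30 CPM in control to 111 ± 3.84 CPM with the microRNA (SD, n = 3 per group; log2 fold change 0.85, SE 0.06, adjusted p = 1.88e-06). BACH1, the repressor of HMOX1, rose, from 23.3 ± 2.33 CPM in control to 37.6 ± 0.701 CPM with the microRNA (log2 fold change 0.69, SE 0.07, adjusted p = 3.77e-05). BACH1, MAFK and HMOX1 thus all had groups that did not overlap, the first pair upward and HMOX1 downward. This is common here: 30.2% of all genes did so upward and 30.3% downward. Whether these differences are linked was not tested. MAFG, another small MAF gene, rose by 0.35 and GSK3B, a kinase that marks NRF2 for degradation, by 0.26. SQSTM1, whose product p62 draws KEAP1 into autophagy, rose by 0.14 (adjusted p = 0.0105), a call that was lost without control library 1 (0.13, adjusted p = 0.0612). NFE2L1, the related factor that controls proteasome genes, fell from 476 ± 22.6 to 376 ± 6.40 CPM. RBX1 and CUL3, the RING and scaffold subunits of the ligase that KEAP1 serves, fell by 0.30 and 0.19. Around RBX1 on chromosome 22 the 50 neighbours had a median of -0.18, and 16 were at or below RBX1.

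Other glutathione genes had 11 of 30 lower (36.7%, against 26.5% of all genes), 3 higher (10%, against 26.3%) and a median of 0.00 (0.00025). GPX3, a secreted glutathione peroxidase, went from 37.3 ± 1.13 to 18.4 ± 1.17 CPM and fell by 1.02 on the log2 scale (SE 0.06). Around it on chromosome 5, 36 of 50 neighbours were below 0, with a median of -0.23, and 3 were at or below GPX3. SLC7A11, the cystine transporter subunit that feeds glutathione synthesis, fell, from 24.4 ± 3.13 CPM in control to 15.8 ± 1.21 CPM with the microRNA (log2 fold change -0.63, SE 0.10, adjusted p = 4.87e-04). GGT1, which breaks down extracellular glutathione, fell by 0.53, and the export pumps ABCC2 and ABCC1 by 0.39 and 0.32. GSTM1, a glutathione transferase, rose from 8.52 ± 0.492 to 16.6 ± 0.183 CPM and GSTO1 from 100.1 ± 16.7 to 148 ± 5.08 CPM, while ABCC5 rose by 0.24 (adjusted p = 0.0114), lost without control library 1 (0.21, adjusted p = 0.0502). Reads of GSTM1 may be shared with its near-identical neighbours.

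Thioredoxin and peroxiredoxin genes outside the members went both ways, with 5 of 16 higher (31.25%, against 26.3% of all genes) and 3 lower (18.75%, against 26.5%). PRDX1, an abundant cytosolic peroxidase and a substrate of sulfiredoxin, fell, from 468 ± 51.7 CPM in control to 313 ± 5.83 CPM with the microRNA (log2 fold change -0.58, SE 0.07, adjusted p = 7.26e-05); it too lies on chromosome 1, where 38 of its 50 neighbours were below 0, with a median of -0.24. PRDX6 and PRDX5 rose by 0.33 and 0.25. PRDX6 also lies on chromosome 1, where its 50 neighbours had a median of 0.25 and 31 were at or below it. SESN2 fell by 0.31, with a median of -0.28 around it on chromosome 1, and MSRB1, a methionine sulfoxide reductase, by 0.28. TXNIP, which binds and inhibits thioredoxin, rose, from 5.15 ± 0.453 CPM in control to 9.03 ± 0.885 CPM with the microRNA (log2 fold change 0.81). It lies on chromosome 1 too, where 13 of its 50 neighbours were below 0, with a median of 0.22. The weakly expressed TXNRD3 rose by 1.01.

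Genes that supply NADPH, the electron source for GSR and TXNRD1, had 5 of 10 higher and 3 lower, with a median of 0.07. That is 50% and 30%, against 26.3% and 26.5% of all genes. PGLS rose by 0.60, IDH1 by 0.41, IDH2 by 0.35 and TKT by 0.24, the last from 924 ± 11.7 to 1089 ± 7.62 CPM. ME1, malic enzyme, fell, from 39.2 ± 3.41 CPM in control to 29.5 ± 1.24 CPM with the microRNA (log2 fold change -0.41, SE 0.07, adjusted p = 8.87e-04) and TALDO1 by 0.24. PGD fell by 0.13 (adjusted p = 0.0207), a call lost without control library 1 or 2 (adjusted p = 0.0668 and 0.0543). It was also lost without the miR-885-5p library numbered 2 or 3 (adjusted p = 0.0832 and 0.0526). Around PGD on chromosome 1 the 50 neighbours had a median of -0.22, and 32 were at or below PGD.

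Of 23 other quinone, carbonyl and heme genes, 11 fell (47.8%, against 26.5% of all genes) and 1 rose (4.35%, against 26.3%), with a median of -0.17. AKR1B10, an aldo-keto reductase often high in liver cancer, fell, from 59.8 ± 3.56 CPM in control to 35.6 ± 1.61 CPM with the microRNA (log2 fold change -0.75, SE 0.06, adjusted p = 6.72e-06). PTGR1 fell by 0.41 and the weakly expressed UGT1A1, which conjugates bilirubin, from 3.33 ± 0.445 to 1.31 ± 0.476 CPM. The ferritin chains that store the iron released from heme were lower by small amounts: FTL, the most abundant row of the table by FPKM in control libraries (rank 1), by 0.21 (adjusted p = 0.0066) and FTH1 by 0.17 (adjusted p = 0.00339). They have 16 and 25 named pseudogenes, so their counts are uncertain. The gene that rose was AKR1C2 at 0.19 (adjusted p = 0.0422), and its call was lost without any single library other than control library 3, with adjusted p = 0.134 without control library 1, 0.122 without control library 2, and 0.101, 0.119 and 0.0693 without miR-885-5p library 1, 2 and 3. Reads of the AKR1C and UGT1A genes may be shared with near-identical or overlapping relatives.

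Of 13 other genes reported as NRF2 targets, 6 rose and 2 fell, with a median of 0.14, opposite in sign to the members' median. That is 46.2% and 15.4%, against 26.3% and 26.5% of all genes. SRGN, a proteoglycan core protein, rose, from 1.26 ± 0.109 CPM in control to 5.15 ± 1.35 CPM with the microRNA (log2 fold change 2.03, SE 0.22), AMBP by 0.72, ABHD4 by 0.30 and RIT1 by 0.23. SLC6A6, the taurine transporter, fell from 3.03 ± 0.205 to 1.33 ± 0.122 CPM. GDF15, a stress-induced secreted factor, fell by 0.20 (adjusted p = 0.0185) with overlapping groups, and its call was lost without control library 1, miR-885-5p library 1 or miR-885-5p library 3 (adjusted p = 0.0802, 0.0707 and 0.0717). Among superoxide and catalase genes, SOD1, the cytosolic dismutase, fell by 0.28, while the mitochondrial SOD2 and the secreted SOD3 rose by 0.21 and 0.23. CAT, catalase, fell by 0.17 (adjusted p = 0.0136), lost without miR-885-5p library 1 (-0.13, adjusted p = 0.068).

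Seed sites were also counted in the related genes. An 8mer or the 7mer GTAATGG was found in 11 of 111, or 9.91%, against 8.01% of all genes; 3 of the 11 were lower, 5 higher and 3 did not pass the test, where 26.5% of all genes were lower and 26.3% higher. The 3 lower genes were ME1, CUL3 and NQO2, the last at -0.26 (adjusted p = 0.0422; chosen after its value was seen). The call of NQO2 was lost without any single library, with adjusted p from 0.0512 without control library 2 to 0.160 without control library 1. It was also lost with DESeq2 (adjusted p = 0.0665), upper-quartile scaling (0.0507), total-count scaling (0.0861) and the replicate block (0.0847). GSK3B, SOD2 and ABCC5 were among the 5 higher genes. The 7mer TAATGGA was the strongest site of 8 of the 111 genes and of 9.24% of all genes. Of those 8 genes, SLC7A11, GPX8 and MGST1 fell, MAFK, TXNIP and AKR1C2 rose, and GSTA4 and AKR1C1 did not pass the test. SLC7A11 and GPX8 hold it at 2 places each. Sites are shown, with the match in capitals, for a pair of genes that fell and a pair that rose, since similar sites were found in both: the 8mers of ME1, which fell, and ABCC5, which rose, and the 7mers GTAATGG of CUL3, which fell, and GSK3B, which rose.
ME1 8mer, chr6:83210769-83210798, minus strand: taatgtttgaaGTAATGGAaaaaattttaa
ABCC5 8mer, chr3:183986246-183986275, minus strand: gagctgagaaaGTAATGGActcatccataa
CUL3 7mer, chr2:224472934-224472963, minus strand: gtttcagatatGTAATGGggcaaaccacta
CUL3 7mer, chr2:224472434-224472463, minus strand: tttataggaaaGTAATGGtagttcatgttt
GSK3B 7mer, chr3:119821557-119821586, minus strand: tcatcctattaGTAATGGtctttgggggtc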

How the data were processed

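The authors deposited a single table with a count per gene and library, whole numbers with no normalization per the file headers, and an FPKM value per gene and library, also per the file headers. It also holds the authors' p-value and log2 fold change for the comparison, with no test named. GRCh38, DESeq2 1.38.3, StringTie 2.2.1 and HISAT2 2.0.4 are named, per the submitters' processing notes, without their roles. Which tool counted the reads is not stated there. Per the labels' protocols, libraries were made with a NEBNext Ultra kit. The smallest count of a row summed over the 6 libraries was 194, so weak genes had been left out before deposit.

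The test on counts was edgeR's (4.0.16, under R 4.3.3; quasi-likelihood, TMM, filterByExpr, all 6 libraries, no block), Benjamini-Hochberg over all 14034 rows; SE is the log2 fold change over the square root of F. The code of the fits was run on simulated data in which few genes changed. That setting differs from these data, where 52.9% of genes were called, so it does not vouch for error rates here. Alternatives were DESeq2 1.42.0, limma-voom (limma 3.58.1), RLE, upper-quartile and total-count scaling, no filter, 1 CPM in 3 libraries, a test against 1.5-fold, the replicate number as a block and leaving out each library. FPKM served only for levels between genes and for 5 ratios. The members and lists were chosen with earlier results of these data known. Named genes are all members, and from each list the up to 4 genes with the smallest adjusted p in each direction past the threshold, plus SLC7A11, ME1, PRDX1, BACH1, SQSTM1, FTH1 and FTL; other genes were chosen after their values were seen. A gene that this rule names is not reported here. Replicates differed by more than sampling noise (within groups, chi-square over degrees of freedom was 7.95 to 40.5).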

Additional observations from a re-analysis of the deposited data

How the results depend on the processing

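The falls of HMOX1, GCLM, GSR, TXN, TXNRD1 and SRXN1 kept their direction and their call under DESeq2, limma-voom and the 3 other scalings. They also did so with the replicate block and without each library in turn. The settings with no filter and with the 1 CPM filter gave the same values as the main fit, so they are no check of these calls. Against a 1.5-fold change, 493 genes were higher and 410 lower, 1 member and 4 related genes were lower and 3 related genes higher. The members not called there kept their estimates of -0.65 (GCLM), -0.23 (GSR), -0.29 (TXN), -0.33 (TXNRD1) and -0.30 (SRXN1). That alternative asks for a change past 1.5-fold by more than the error of the estimate. The fall of GCLM was 1.57-fold, only slightly past it. GCLC passed the threshold under upper-quartile and total-count scaling (0.12 and 0.16), which made 1 member higher in each; these scalings moved the median of all genes to 0.01 and 0.05. Leaving out a library gave log2 fold changes from -0.13 to -0.031 for NFE2L2 (past the threshold without control library 3) and from -0.0072 to 0.024 for KEAP1, whose sign turned without control library 2; the cause was not tested. It gave 6 to 7 members lower. The deviations of same-numbered libraries from their group means had correlations of -0.18, -0.06 and -0.15. Those of differently numbered libraries ran from 0.01 to 0.14. With 3 libraries per group these values cannot settle whether the numbers pair the libraries. With the replicate block 3329 genes were higher and 3366 lower, 6 members were lower and HMOX1 was at -1.08. Among named related genes, PGD and AKR1C2 were among those that lost their calls with it (adjusted p = 0.0571 and 0.0688). Total-count scaling ended the calls of PGD, GDF15, CAT, HMOX2 and NQO2 (adjusted p = 0.0998, 0.0546, 0.0546, 0.0586 and 0.0861), and the call of NQO2 was also lost with DESeq2, upper-quartile scaling and the replicate block (0.0665, 0.0507 and 0.0847).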
